A study of Drosophila melanogaster with 8 samples.

Results

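Aminoacyl-tRNA synthetases are the enzymes that load each tRNA with its amino acid before translation. Their genes were taken from the count tables by symbol: the three-letter name of an amino acid followed by RS, with the suffix -m for the enzymes that work in mitochondria, and the bifunctional GluProRS included. The rule found 33 of the 14094 genes listed, of which 18 encode cytoplasmic enzymes and 15 mitochondrial ones. All 33 passed the filter on low counts that left 8957 genes for testing. The study sequenced RNA of adult Drosophila melanogaster ovaries, dissected from flies on days 1 to 3 after they left the pupal case. There were 8 libraries in 4 groups of 2. The germline knockdown (GKD) of stwl, the gene of the chromatin protein Stonewall, with the driver nosGAL4 (nosGAL4;stwl RNAi/TM6) was compared with nosGAL4;MKRS/TM6 controls. The knockdown with bamGAL4 (bamGAL4>stwl RNAi/TM6) was compared with bamGAL4 controls. The balancer chromosome TM6 was thus listed in both knockdown groups and in the nosGAL4 controls, MKRS in the nosGAL4 controls alone, and no balancer in the bamGAL4 controls. The nosGAL4 driver uses the control region of nanos, which acts in the germline from the stem cells on, and bamGAL4 that of bag of marbles, which acts in dividing germline cysts. Nothing in the labels says that 2 libraries of a group came from separate sets of flies, so the p-values measure the spread between these libraries, which may be technical.

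A cytoplasmic synthetase charges the tRNAs that read nuclear mRNAs on cytosolic ribosomes. The fly's mitochondrial synthetases are encoded by nuclear genes, are imported, and charge the tRNAs made from mitochondrial DNA, on which the few proteins of the mitochondrial genome depend. In animals several cytoplasmic synthetases sit together in the multisynthetase complex, held by the scaffold proteins AIMP1, AIMP2 and AIMP3. Ovaries make large amounts of protein, ribosomes and mitochondria for the egg, and nurse cells carry much of that work. The symbol rule gave both a cytoplasmic and a mitochondrial enzyme for 12 amino acids: Ala, Arg, Asn, Asp, Cys, Ile, Leu, Met, Ser, Trp, Tyr and Val. GluProRS charges both glutamate and proline tRNAs in the cytoplasm, and GluRS-m and ProRS-m do so in mitochondria. GlnRS, GlyRS, HisRS, LysRS and ThrRS had no -m gene under the rule. Mitochondria are known to make glutaminyl-tRNA by charging it with glutamate and then amidating it, and in humans the glycine and lysine genes each make a cytoplasmic and a mitochondrial form. PheRS-m works alone, whereas its cytoplasmic counterpart is built of alpha and beta subunits whose symbols fall outside the rule.

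Library totals ran from 7473859 to 12174983 estimated counts. Replicate libraries correlated across genes at Pearson r of 0.925 in nosGAL4 GKD, 0.98 in nosGAL4 controls, 0.984 in bamGAL4 GKD and 0.97 in bamGAL4 controls, on the log2 CPM scale. The stwl mRNA itself had 61.1 and 27.7 CPM (normalised counts scaled to a common library size) in nosGAL4 GKD ovaries, against 23.1 and 16.9 CPM in their controls. It had 23.2 and 29.6 CPM in bamGAL4 GKD ovaries, against 18.2 and 21 CPM in their controls. It was therefore in no knockdown library below the controls of its driver, and the knockdown is taken from the labels. Cell type markers moved with the groups. The summed CPM of 10 germline markers was 349 to 607 in nosGAL4 GKD, against 3186 to 3342 in controls, and 249 to 295 in bamGAL4 GKD, against 2494 to 2502 in controls; bam was at 0 in 1 nosGAL4 GKD library. Of these markers, 9 were lower with nosGAL4 and 8 with bamGAL4, while grk was higher with both, with log2 fold changes of 1.59 and 1.94, and BicD was not called with bamGAL4. The 10 follicle cell markers summed to 2093 to 3746 CPM in nosGAL4 GKD, against 11193 to 11457 in controls, and to 1088 to 1137 in bamGAL4 GKD, against 9267 to 12025 in controls. Of these, 4 were lower with nosGAL4 and 8 with bamGAL4, 1 was higher with each, and 5 and 1 were not called. The higher one was Fas3, with 1005 and 1444 CPM in nosGAL4 GKD, against 26.2 and 30.9 CPM in controls, and 919 and 978 CPM in bamGAL4 GKD, against 24.6 and 17.4 CPM in controls, so that it made up most of the bamGAL4 knockdown sum. tj was called with neither driver. The 10 muscle markers, all higher in the knockdown with either driver, summed to 36452 to 41377 CPM in nosGAL4 GKD, against 350 to 413 in controls, and to 45804 to 50113 in bamGAL4 GKD, against 400 to 511 in controls. The 10 haemocyte and fat body markers, again all higher, summed to 4573 to 4902 CPM in nosGAL4 GKD, against 162 in each control, and to 13599 to 14742 in bamGAL4 GKD, against 154 to 259 in controls, where NimC1, eater and Fbp1 were at 0 in some libraries. These marker shifts run beside every synthetase result that follows, and their part in the results was not tested. In such bulk samples, fewer cells of a type and less RNA per cell cannot be told apart.

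Cytoplasmic synthetase mRNAs were mostly more abundant than mitochondrial ones. Levels of different genes are compared per length, as CPM per kilobase of exon (mean of 2 libraries). The cytoplasmic genes ran from 9.82 to 53 in nosGAL4 GKD, against 25.3 to 77.7 in nosGAL4 controls, and from 14.6 to 49.7 in bamGAL4 GKD, against 22.5 to 109 in bamGAL4 controls. The mitochondrial genes ran from 1.22 to 25.3 in nosGAL4 GKD, against 2.86 to 22.2 in nosGAL4 controls, and from 1.76 to 21.2 in bamGAL4 GKD, against 5.17 to 18.7 in bamGAL4 controls. No mitochondrial gene reached the lowest cytoplasmic one in either control group, whereas 3 did in nosGAL4 GKD and 2 in bamGAL4 GKD. The mitochondrial genes spanned a 20.8-fold range in nosGAL4 GKD, against 7.79-fold in controls, and 12-fold in bamGAL4 GKD, against 3.62-fold in controls.

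**Figure D1:**
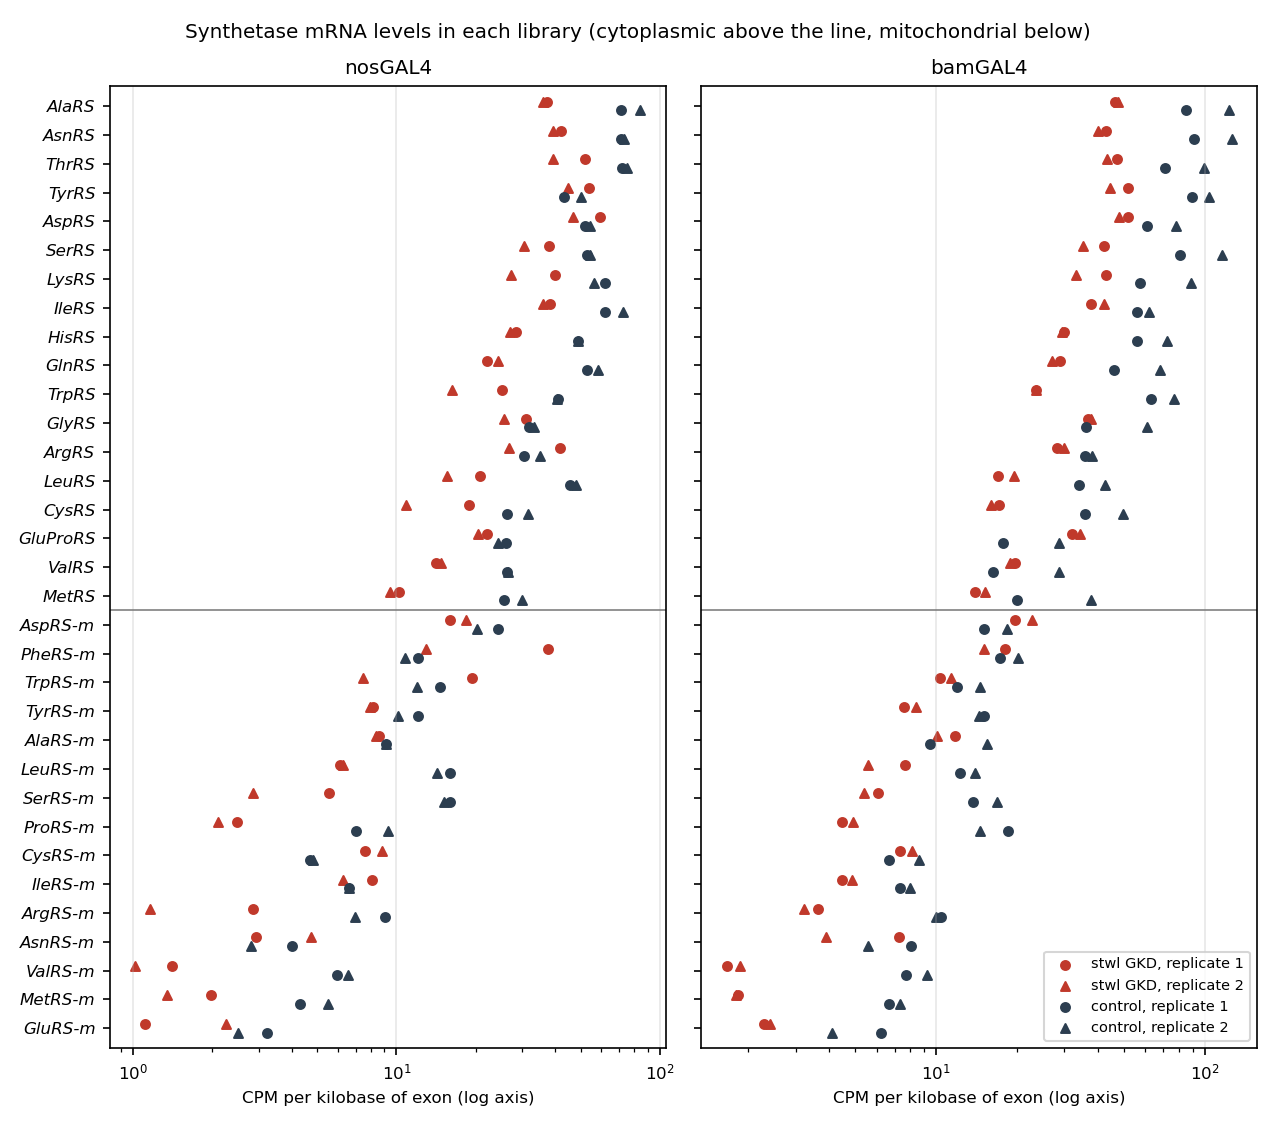
Level of each synthetase mRNA in CPM per kilobase of exon (log axis), 1 point per library, for nosGAL4 (left) and bamGAL4 (right); red is stwl GKD, dark blue is control, circles are replicate 1 and triangles replicate 2. Most cytoplasmic genes sit to the left of their controls in GKD, and ValRS-m stands at the far left of both panels in GKD, at a mean of 1.22 with nosGAL4 and 1.76 with bamGAL4.

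The order of the levels differed between knockdown and control. At the top stood AspRS in nosGAL4 GKD, at 53 CPM per kilobase, followed by TyrRS at 49.4 and ThrRS at 45.5, whereas in nosGAL4 controls AlaRS led at 77.7, ahead of ThrRS at 73.4 and AsnRS at 72.4. In bamGAL4 GKD the order began with AspRS at 49.7, TyrRS at 47.9, AlaRS at 47 and ThrRS at 45.2, and in bamGAL4 controls with AsnRS at 109, AlaRS at 104 and SerRS at 98.5. These top neighbours overlapped between replicate libraries: in nosGAL4 GKD, AspRS had 59.3 and 46.7 CPM per kilobase and TyrRS 53.7 and 45. At the bottom stood ValRS-m in both knockdown groups, at 1.22 with nosGAL4 and 1.76 with bamGAL4, and GluRS-m in both control groups, at 2.86 with nosGAL4 and 5.17 with bamGAL4. Averaged over the 8 libraries and read without length, each cytoplasmic gene was above 68.5% to 91.6% of the genes tested and each mitochondrial gene above 15.4% to 76.1%.

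Summed over the class, the cytoplasmic synthetase mRNAs were lower in every knockdown library than in any control library of its driver. The sums were 1592 and 1340 CPM in nosGAL4 GKD ovaries, against 2336 and 2497 CPM in nosGAL4 controls. They were 1669 and 1638 CPM in bamGAL4 GKD ovaries, against 2492 and 3428 CPM in bamGAL4 controls. The mitochondrial class did the same at a lower level, with 320 and 248 CPM in nosGAL4 GKD, against 413 and 379 CPM in controls, and 301 and 299 CPM in bamGAL4 GKD, against 417 and 473 CPM in controls. These sums depend on the scaling used here. Scaling on ribosomal protein genes moved the bamGAL4 median of all genes by 0.82. It left bamGAL4 median log2 fold changes of -0.18 for the cytoplasmic class and -0.04 for the mitochondrial class. The sums were not taken under that scaling. The distance between the classes was then taken in each library. The mean log2 level per kilobase of the cytoplasmic genes minus that of the mitochondrial genes was 2.31 and 2.32 in nosGAL4 GKD, against 2.3 and 2.48 in controls, and 2.28 and 2.31 in bamGAL4 GKD, against 2.12 and 2.51 in controls. The knockdown values lay within the range of their controls with either driver, on this scale, where each gene counts alike. The ratio of the class sums, in which abundant genes weigh more, was 4.97 and 5.4 in nosGAL4 GKD, against 5.66 and 6.59 in controls, and 5.54 and 5.48 in bamGAL4 GKD, against 5.98 and 7.25 in controls. By that ratio the knockdown libraries lay below both controls of their driver.

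**Figure D2:**
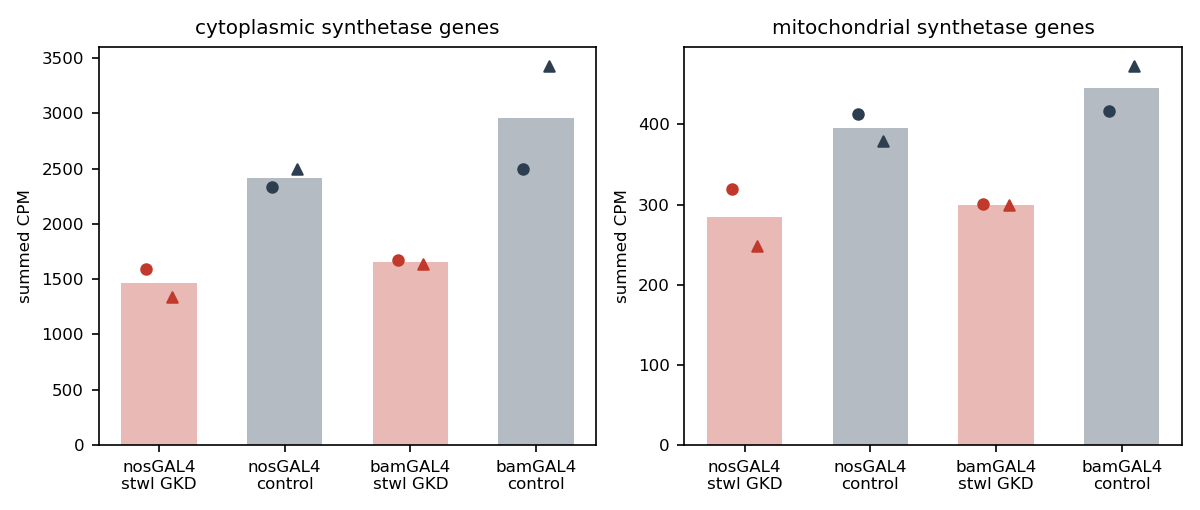
Summed CPM of the 18 cytoplasmic (left) and 15 mitochondrial (right) synthetase genes; bars are means of 2 libraries, circles replicate 1 and triangles replicate 2, and both axes start at 0. With the scaling used here, the knockdown libraries lie below the controls of their driver in both classes. For example, the cytoplasmic class with nosGAL4 had 1592 and 1340 against 2336 and 2497 CPM.

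The cytoplasmic enzymes fell as a broad group with both drivers. With nosGAL4, 13 of 18 were lower in GKD and 0 higher by edgeR's quasi-likelihood test at an adjusted p below 0.05, while over all genes tested 25.7% were called lower, 33.5% higher and 59.2% in either direction. With bamGAL4, 13 of 18 were again lower and 0 higher, beside 33.1% lower, 35% higher and 68.1% in either direction over all genes. No cytoplasmic member was higher at an unadjusted p below 0.05 with either driver, and DESeq2 called 0 higher with nosGAL4 and 1, GluProRS, with bamGAL4. The median log2 fold change was -0.82 with nosGAL4 (range -1.5 to 0.08), where that of all genes was 0.11, and -1 with bamGAL4 (range -1.56 to 0.51), where that of all genes was -0.06. The bamGAL4 median of the class was -1.23 without replicate 1 of the bamGAL4 controls and -0.69 without replicate 2. Called falls of at least 2-fold numbered 4 of 18 with nosGAL4, beside 19.3% of all genes, and 9 of 18 with bamGAL4, beside 26.9%; the nosGAL4 count is near the share of all genes. The 2 libraries of each group did not overlap, with GKD lower, for 15 of 18 genes with either driver, beside 37.7% of all genes with nosGAL4 and 43.8% with bamGAL4. Groups that did not overlap in either direction made up 79.8% of all genes with nosGAL4 and 87.2% with bamGAL4. Among the 6822 genes whose mean CPM lay within the members' range of 5.12 to 218, 2109 were lower and 1965 higher with nosGAL4, with a median of -0.14, and 2653 were lower and 2100 higher with bamGAL4, with a median of -0.33. Without replicate 2 of the nosGAL4 controls, which left 1 library in that group, the nosGAL4 class median was -0.82. Fewer genes were then called lower, in the class and over all genes. AsnRS, CysRS, IleRS, LysRS, SerRS, ThrRS and ValRS were no longer called. The bamGAL4 count dropped to 0 when libraries were scaled on ribosomal protein genes, where 13.7% of all genes were lower. That scaling moved the median of all genes by -0.55 with nosGAL4 and 0.82 with bamGAL4, to -0.44 and 0.76. Relative to this median the cytoplasmic class stood at -0.97 and -0.94, beside -0.93 and -0.94 under the scaling used here. A change of scaling shifts all genes by nearly the same step. This relative position could therefore hardly change, and it does not test the falls.

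Among the cytoplasmic enzymes, 12 fell with both drivers: AlaRS, AsnRS, CysRS, GlnRS, HisRS, IleRS, LeuRS, LysRS, MetRS, SerRS, ThrRS and TrpRS. MetRS, which also charges the initiator tRNA, had 34.6 and 32.2 CPM in nosGAL4 GKD, against 87 and 102 CPM in controls. Its log2 fold change was -1.50 (SE 0.30, adjusted p = 0.00168), the lowest of the cytoplasmic class with this driver. With bamGAL4 it had 47.5 and 51.9 CPM in GKD, against 68.1 and 128 CPM in controls. The bamGAL4 groups stayed apart, although the control libraries differed from each other more than the nosGAL4 ones did. LeuRS, the leucine enzyme, had 81.5 and 61.1 CPM in nosGAL4 GKD, against 179 and 188 CPM in controls (log2 fold change -1.37, SE 0.24, adjusted p = 0.00069). With bamGAL4 it had 66.8 and 76.5 CPM in GKD, against 133 and 167 CPM in controls. LeuRS thus stood at 38.8% of control with nosGAL4 and 47.7% with bamGAL4. GlnRS, the glutamine enzyme, had 54.2 and 59.7 CPM in nosGAL4 GKD, against 130 and 143 CPM in controls, and 70.6 and 66.3 CPM in bamGAL4 GKD, against 113 and 167 CPM in controls.

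AlaRS, an alanine enzyme known for removing wrongly attached serine and glycine, had 123 and 119 CPM in nosGAL4 GKD, against 234 and 277 CPM in controls. With bamGAL4 it had 153 and 157 CPM in GKD, against 280 and 405 CPM in controls. The log2 fold changes were -1.08 (SE 0.23) with nosGAL4 and -1.15 (SE 0.23) with bamGAL4, so that both knockdowns were lower by a similar step. TrpRS, which charges tryptophan tRNA, had 39.8 and 39.7 CPM in bamGAL4 GKD, against 106 and 129 CPM in controls, and fell the most of the class with this driver, by 1.56 on the log2 scale (SE 0.26, adjusted p = 0.00038). With nosGAL4 it had 42.4 and 27.3 CPM in GKD, against 69.3 and 68.6 CPM in controls. The asparagine enzyme AsnRS had 101 and 94.7 CPM in bamGAL4 GKD, against 216 and 300 CPM in controls, and 100 and 93.5 CPM in nosGAL4 GKD, against 170 and 174 CPM in controls. In both drivers the AsnRS groups were well apart, with log2 fold changes of -1.40 (SE 0.23) for bamGAL4 and -0.83 (SE 0.22) for nosGAL4. SerRS, the serine enzyme, had 80.3 and 67.1 CPM in bamGAL4 GKD, against 155 and 221 CPM in controls (log2 fold change -1.35, SE 0.25), and 72.8 and 58.1 CPM in nosGAL4 GKD, against 101 and 104 CPM in controls (-0.65, SE 0.25).

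CysRS, the cysteine enzyme, had 46.1 and 26.8 CPM in nosGAL4 GKD, against 64.7 and 77.8 CPM in controls, and 42.3 and 39.4 CPM in bamGAL4 GKD, against 88.2 and 122 CPM in controls. HisRS, the histidine enzyme, had 81.5 and 77.3 CPM in nosGAL4 GKD, against 139 and 140 CPM in controls, and 85.2 and 83.8 CPM in bamGAL4 GKD, against 160 and 207 CPM in controls. IleRS, which charges isoleucine tRNA and edits away valine, had 149 and 140 CPM in nosGAL4 GKD, against 241 and 282 CPM in controls, and 146 and 164 CPM in bamGAL4 GKD, against 219 and 243 CPM in controls. In none of these 3 genes did the knockdown and control libraries overlap with either driver. Their log2 fold changes with nosGAL4 were -0.97 for CysRS, -0.81 for HisRS and -0.85 for IleRS, and with bamGAL4 -1.37 for CysRS, -1.12 for HisRS and -0.57 for IleRS. The IleRS call with bamGAL4 was lost in more alternatives than any other cytoplasmic call with that driver: it turned to a log2 fold change of 0.27 under ribosomal protein scaling and was lost in 6 other alternatives. LysRS, the lysine enzyme, had 90.4 and 61.9 CPM in nosGAL4 GKD, against 141 and 127 CPM in controls, and 96.8 and 75.1 CPM in bamGAL4 GKD, against 131 and 201 CPM in controls. ThrRS, the threonine enzyme, had 150 and 114 CPM in nosGAL4 GKD, against 207 and 218 CPM in controls, and 137 and 125 CPM in bamGAL4 GKD, against 206 and 287 CPM in controls. Both LysRS and ThrRS fell, with log2 fold changes of -0.81 and -0.69 with nosGAL4 and -0.95 and -0.91 with bamGAL4.

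Of the other 6 cytoplasmic genes, 1 was called with each driver alone and 4 with neither. TyrRS, the tyrosine enzyme, had 95.1 and 79.7 CPM in nosGAL4 GKD, against 76.7 and 89 CPM in controls, so those libraries overlapped. With bamGAL4 it had 91.5 and 78.2 CPM in GKD, against 158 and 184 CPM in controls. Its log2 fold change was 0.08 with nosGAL4 (SE 0.22, adjusted p = 0.784) and -1.01 with bamGAL4 (SE 0.22, adjusted p = 0.00239). ValRS, the valine enzyme, showed the other order. It had 48 and 50.5 CPM in nosGAL4 GKD, against 89.4 and 90.7 CPM in controls, and 67.1 and 64.4 CPM in bamGAL4 GKD, against 55.7 and 97.6 CPM in controls. Its log2 fold change was -0.87 with nosGAL4 (SE 0.27, adjusted p = 0.0187) and -0.22 with bamGAL4 (SE 0.27, adjusted p = 0.473). With bamGAL4 the control libraries lay on either side of the knockdown ones. The sign turned to 0.02 with RLE size factors, 0.59 with ribosomal protein scaling and 0.23 without replicate 2 of the bamGAL4 controls. The bamGAL4 value was -0.58 without replicate 1 of those controls. It was called lower, at -1.05 (adjusted p = 0.00245), when a trend on transcript length was removed. That correction moved the bamGAL4 median of all genes by -0.5. The test of the difference between drivers did not call ValRS (-0.65, SE 0.38, adjusted p = 0.318).

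The 4 cytoplasmic genes called with neither driver were ArgRS, AspRS, GluProRS and GlyRS. ArgRS, the arginine enzyme, had 89.2 and 56.9 CPM in nosGAL4 GKD, against 65.1 and 75.1 CPM in controls, and 60.2 and 64.1 CPM in bamGAL4 GKD, against 76.5 and 81.2 CPM in controls. The nosGAL4 libraries overlapped and the bamGAL4 libraries did not. The log2 fold change with nosGAL4, 0.06, turned to -0.35 when libraries were scaled on their totals and to -0.55 when scaled on ribosomal protein genes. These scalings moved the nosGAL4 median of all genes by -0.39 and -0.55. AspRS, the aspartate enzyme, had 134 and 106 CPM in nosGAL4 GKD, against 117 and 123 CPM in controls, and 117 and 108 CPM in bamGAL4 GKD, against 138 and 177 CPM in controls. Antisense and overlapping genes cover 73.48% of its exon bases, and the sources used here do not give the strand setting of the counting, which leaves its value uncertain. GlyRS, the glycine enzyme, had 78.9 and 65.4 CPM in nosGAL4 GKD, against 81.2 and 84.5 CPM in controls, and 93.1 and 95.6 CPM in bamGAL4 GKD, against 91.6 and 155 CPM in controls. GluProRS had 120 and 111 CPM in nosGAL4 GKD, against 143 and 133 CPM in controls, and 174 and 187 CPM in bamGAL4 GKD, against 96.9 and 156 CPM in controls. It was the only cytoplasmic gene whose bamGAL4 knockdown libraries both exceeded both controls. Its log2 fold change of 0.51 with bamGAL4 (SE 0.25, adjusted p = 0.0904) reached 0.75 and an adjusted p of 0.0174 with RLE size factors. It turned to -1.06 with an adjusted p of 0.00129 when a trend on transcript length was removed. RLE size factors moved the bamGAL4 median of all genes by 0.22, and the length correction moved it by -0.5.

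The mitochondrial enzymes split more widely. With nosGAL4, 6 of 15 were lower and 2 higher, beside the 25.7% lower and 33.5% higher over all genes, and the median log2 fold change was -0.46 (range -2.36 to 1.14). With bamGAL4, 8 of 15 were lower and 0 higher, beside 33.1% lower and 35% higher, and the median was -0.88 (range -2.26 to 0.34). No mitochondrial member was higher with bamGAL4 at an unadjusted p below 0.05, and DESeq2 called 1, AspRS-m. Called falls of at least 2-fold numbered 6 of 15 with nosGAL4, beside 19.3% of all genes, and 5 of 15 with bamGAL4, beside 26.9%; the bamGAL4 count is near the share of all genes. Knockdown libraries lay below both controls for 10 of 15 genes with either driver, beside 37.7% of all genes with nosGAL4 and 43.8% with bamGAL4. They lay above both controls for 2 genes with nosGAL4, beside 42.1%, and for 1 with bamGAL4, beside 43.4%. Without replicate 2 of the bamGAL4 knockdown, which left 1 library in that group, the bamGAL4 class median was -0.79. Fewer genes were then called lower, in the class and over all genes. The bamGAL4 count of falls was 3 with ribosomal protein scaling, where 13.7% of all genes were lower. Relative to the median of all genes the class stood at -0.57 with nosGAL4 and -0.82 with bamGAL4, and at -0.6 and -0.8 under ribosomal protein scaling. That scaling shifts all genes by nearly the same step, so these relative values could hardly change and do not test the falls.

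A set of 6 mitochondrial enzymes fell with both drivers: ArgRS-m, LeuRS-m, MetRS-m, ProRS-m, SerRS-m and ValRS-m. All 6 nosGAL4 calls held in each of the 17 alternative settings tried. ValRS-m, on chromosome arm 3L (8961274 to 8964769, minus strand, dm6), had 4.59 and 3.32 CPM in nosGAL4 GKD, against 19.3 and 21.4 CPM in controls. It had 5.41 and 6.06 CPM in bamGAL4 GKD, against 25 and 30 CPM in controls. These were the lowest log2 fold changes of all 33 genes, -2.36 with nosGAL4 (SE 0.33, adjusted p = 0.000164) and -2.26 with bamGAL4 (SE 0.32, adjusted p = 0.00013), which left 19.5% and 20.8% of the control level. ProRS-m, the mitochondrial proline enzyme, had 3.78 and 3.18 CPM in nosGAL4 GKD, against 10.6 and 14.1 CPM in controls. With bamGAL4 it had 6.74 and 7.45 CPM in GKD, against 28 and 22.1 CPM in controls. Its log2 fold changes, -1.83 (SE 0.36) with nosGAL4 and -1.82 (SE 0.34) with bamGAL4, were nearly the same, although its level was higher in bamGAL4 libraries of both kinds.

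MetRS-m, which serves methionine and, through formylation of its product, the start of mitochondrial translation, had 8.51 and 5.84 CPM in nosGAL4 GKD, against 18.5 and 23.6 CPM in controls. It had 7.89 and 7.75 CPM in bamGAL4 GKD, against 28.7 and 31.7 CPM in controls. MetRS-m stood at 34.1% of control with nosGAL4 (log2 fold change -1.55, SE 0.31) and 25.9% with bamGAL4 (-1.95, SE 0.31). ArgRS-m, the arginine enzyme, had 7.84 and 3.18 CPM in nosGAL4 GKD, against 24.8 and 19.1 CPM in controls, and 10 and 8.84 CPM in bamGAL4 GKD, against 28.7 and 27.3 CPM in controls. Its groups were apart with both drivers, with log2 fold changes of -2.00 (SE 0.40) and -1.57 (SE 0.39). SerRS-m, the serine enzyme, had 14.2 and 7.29 CPM in nosGAL4 GKD, against 40.8 and 38.9 CPM in controls, and 15.5 and 13.7 CPM in bamGAL4 GKD, against 35 and 43 CPM in controls. It fell by 1.89 on the log2 scale with nosGAL4 (SE 0.33) and by 1.42 with bamGAL4 (SE 0.32). LeuRS-m, the leucine enzyme, had 18.4 and 19 CPM in nosGAL4 GKD, against 48.4 and 42.9 CPM in controls, and 23.1 and 16.8 CPM in bamGAL4 GKD, against 37.1 and 42.2 CPM in controls. Its log2 fold changes were -1.29 (SE 0.25) with nosGAL4 and -0.99 (SE 0.25) with bamGAL4.

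IleRS-m and TyrRS-m were called lower with bamGAL4 and not with nosGAL4, but neither passed the test of the difference between drivers, at 0.84 (SE 0.37, adjusted p = 0.199) for IleRS-m and 0.42 (adjusted p = 0.53) for TyrRS-m. IleRS-m, the isoleucine enzyme, had 12.9 and 14.1 CPM in bamGAL4 GKD, against 21.4 and 23.2 CPM in controls (log2 fold change -0.72, SE 0.27, adjusted p = 0.0332). With nosGAL4 it had 23.5 and 18.2 CPM in GKD, against 19.2 CPM in each control, and the libraries overlapped. TyrRS-m, the tyrosine enzyme, had 11.7 and 12.9 CPM in bamGAL4 GKD, against 23.2 and 22.2 CPM in controls (-0.88, SE 0.27, adjusted p = 0.0157), and 12.6 and 12.2 CPM in nosGAL4 GKD, against 18.6 and 15.5 CPM in controls (-0.46, SE 0.28, adjusted p = 0.172). The nosGAL4 libraries of TyrRS-m did not overlap either, and the gene was called lower there with library totals (-0.88), ribosomal protein scaling (-1.04) and the length correction (-0.80). These settings moved the nosGAL4 median of all genes by -0.39, -0.55 and -0.52. Both bamGAL4 calls were lost with RLE size factors, where the log2 fold changes were -0.49 for IleRS-m and -0.66 for TyrRS-m. The IleRS-m call held in 7 of the 17 alternatives: it was lost without any 1 of the 4 bamGAL4 libraries and without replicate 2 of the nosGAL4 controls, and ribosomal protein scaling turned it to 0.12.

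CysRS-m and PheRS-m were the only members called higher, both with nosGAL4. CysRS-m, the mitochondrial cysteine enzyme, had 16.1 and 18.6 CPM in nosGAL4 GKD, against 9.88 and 10.1 CPM in controls (log2 fold change 0.79, SE 0.29, adjusted p = 0.0395). With bamGAL4 it had 15.5 and 17.1 CPM in GKD, against 14.1 and 18.1 CPM in controls, and the groups overlapped. An opposite-strand gene covers 14.33% of its exon bases. PheRS-m, the mitochondrial phenylalanine enzyme, had 57.6 and 19.8 CPM in nosGAL4 GKD, against 18.5 and 16.5 CPM in controls (log2 fold change 1.14, SE 0.42, adjusted p = 0.0396). The first knockdown library alone carried that rise: without it the log2 fold change was 0.16 with an adjusted p of 0.635. With bamGAL4 PheRS-m had 27.7 and 22.9 CPM in GKD, against 26.3 and 30.8 CPM in controls. TrpRS-m, the tryptophan enzyme, was also far higher in that first library, with 48.1 and 18.4 CPM in nosGAL4 GKD, against 36.2 and 29.8 CPM in controls. It was not called with all libraries (0.01, SE 0.38, adjusted p = 0.985), and without the first knockdown library it was -0.85 with an adjusted p of 0.0214. Each of the 2 rises held in 6 of the 17 alternatives. With library totals, CysRS-m was at 0.38 with an adjusted p of 0.297.

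The remaining mitochondrial members were called with neither driver. AspRS-m, the aspartate enzyme and the most abundant of the class by mean CPM, had 70.9 and 81.2 CPM in nosGAL4 GKD, against 107 and 89.7 CPM in controls, and 86.9 and 101 CPM in bamGAL4 GKD, against 66.7 and 81.2 CPM in controls. Neither pair of groups overlapped, and they lay in opposite directions, with log2 fold changes of -0.37 (SE 0.22) with nosGAL4 and 0.34 (SE 0.22) with bamGAL4. These directions depended on the setting. The length correction moved the median of all genes by -0.52 with nosGAL4 and -0.5 with bamGAL4. With it AspRS-m was called lower with both drivers, at -1.08 (adjusted p = 0.000912) with nosGAL4 and -0.78 (adjusted p = 0.00484) with bamGAL4. With RLE size factors it was called higher with bamGAL4, at 0.57 (adjusted p = 0.048). AlaRS-m, the alanine enzyme, had 27.8 and 27.1 CPM in nosGAL4 GKD, against 29.5 and 29.4 CPM in controls, and 37.7 and 32.7 CPM in bamGAL4 GKD, against 30.8 and 50.1 CPM in controls. AsnRS-m, the asparagine enzyme, had 4.32 and 7.03 CPM in nosGAL4 GKD, against 5.95 and 4.16 CPM in controls, and 10.7 and 5.76 CPM in bamGAL4 GKD, against 11.9 and 8.23 CPM in controls, overlapping with both drivers. GluRS-m, whose product also feeds glutaminyl-tRNA in mitochondria, had 1.89 and 3.85 CPM in nosGAL4 GKD, against 5.47 and 4.24 CPM in controls, and 3.9 and 4.07 CPM in bamGAL4 GKD, against 10.6 and 6.97 CPM in controls. The GluRS-m groups did not overlap, yet at this low level the SE was 0.55 with nosGAL4 and 0.53 with bamGAL4, and log2 fold changes of -0.75 and -1.13 missed the threshold. A count of 3 corresponds to 0.238 to 0.405 CPM, so every member lay above that limit in every library.

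**Figure D3:**
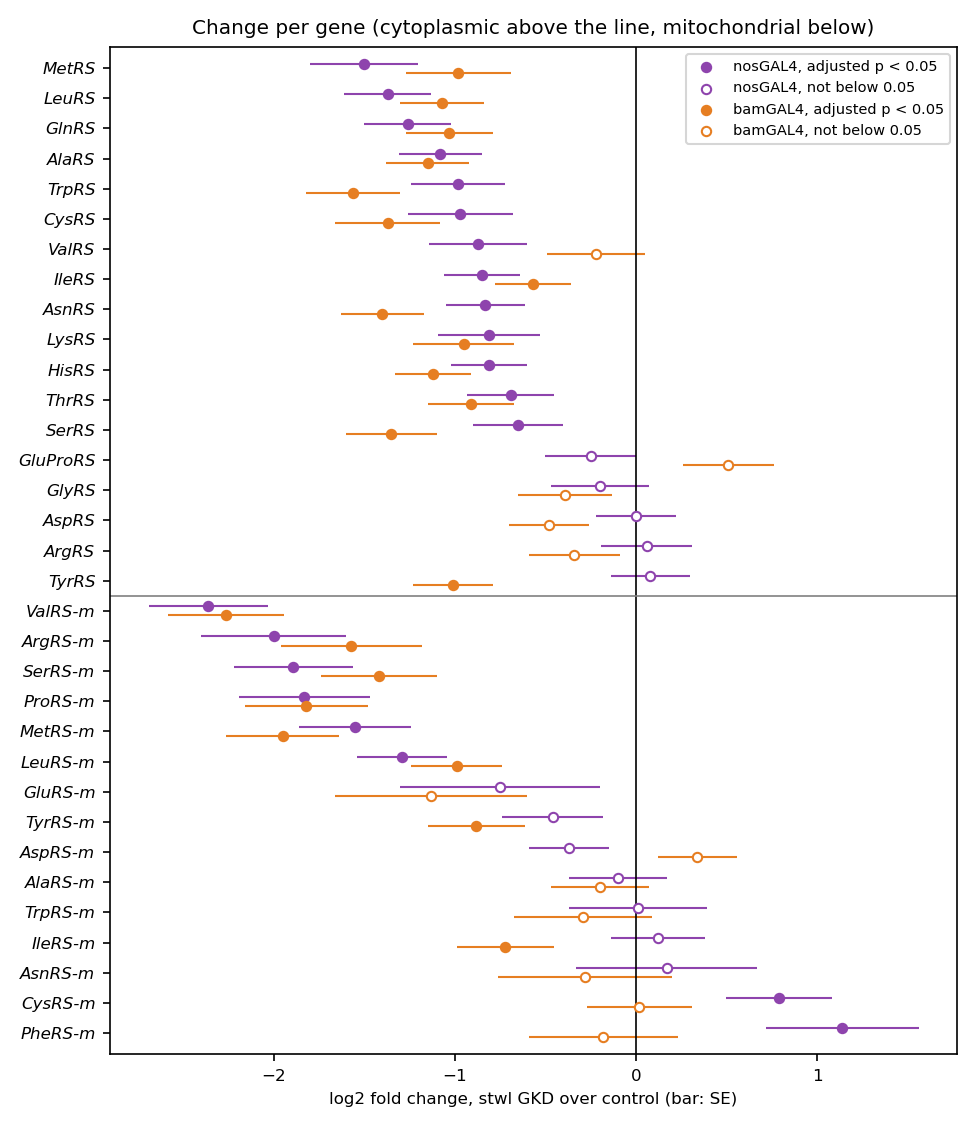
Log2 fold change of each synthetase gene, stwl GKD over control, with nosGAL4 (purple) and bamGAL4 (orange); bars are SE and filled points have an adjusted p below 0.05 (edgeR). Filled points lie left of 0 except CysRS-m and PheRS-m with nosGAL4; under ribosomal protein scaling no cytoplasmic fall with bamGAL4 would be filled, and IleRS would lie at 0.27.

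For the 12 amino acids with both enzymes, the cytoplasmic and the mitochondrial gene did not move as a unit. With nosGAL4 the mitochondrial enzyme had the lower log2 fold change for 6 amino acids and the cytoplasmic one for 6; with bamGAL4 these numbers were 5 and 7. The median of the cytoplasmic minus the mitochondrial change was -0.005 with nosGAL4 and -0.105 with bamGAL4. Valine and arginine lay at one end. The ratio of ValRS to ValRS-m, in CPM per kilobase, was 9.96 and 14.5 in nosGAL4 GKD, against 4.42 and 4.04 in controls, and 11.8 and 10.1 in bamGAL4 GKD, against 2.12 and 3.1 in controls. The ratio of ArgRS to ArgRS-m was 14.6 and 23 in nosGAL4 GKD, against 3.37 and 5.05 in controls, and 7.73 and 9.33 in bamGAL4 GKD, against 3.43 and 3.83 in controls. For both amino acids every knockdown ratio exceeded every control ratio of its driver. Cysteine lay at the other end, with a ratio of CysRS to CysRS-m of 2.46 and 1.24 in nosGAL4 GKD, against 5.62 and 6.6 in controls, and 2.34 and 1.98 in bamGAL4 GKD, against 5.39 and 5.79 in controls. Alanine went the same way, with 4.34 and 4.31 in nosGAL4 GKD, against 7.77 and 9.26 in controls, and 3.98 and 4.71 in bamGAL4 GKD, against 8.93 and 7.95 in controls. Tryptophan had 1.3 and 2.18 in nosGAL4 GKD, against 2.82 and 3.39 in controls, and 2.3 and 2.07 in bamGAL4 GKD, against 5.28 and 5.25 in controls. Asparagine, with 14.4 and 8.3 in nosGAL4 GKD, against 17.8 and 26.1 in controls, and 5.9 and 10.3 in bamGAL4 GKD, against 11.3 and 22.7 in controls, did so too. Cysteine, alanine, tryptophan and asparagine thus had lower ratios in each knockdown library than in either control of its driver. Leucine held its ratio: 3.4 and 2.47 in nosGAL4 GKD, against 2.84 and 3.37 in controls, and 2.22 and 3.5 in bamGAL4 GKD, against 2.76 and 3.04 in controls. The cytoplasmic gene stayed above its mitochondrial counterpart for all 12 amino acids in all 8 libraries, with a lowest ratio of 1.24, for cysteine, and a highest of 26.1, for asparagine.

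**Figure D4:**
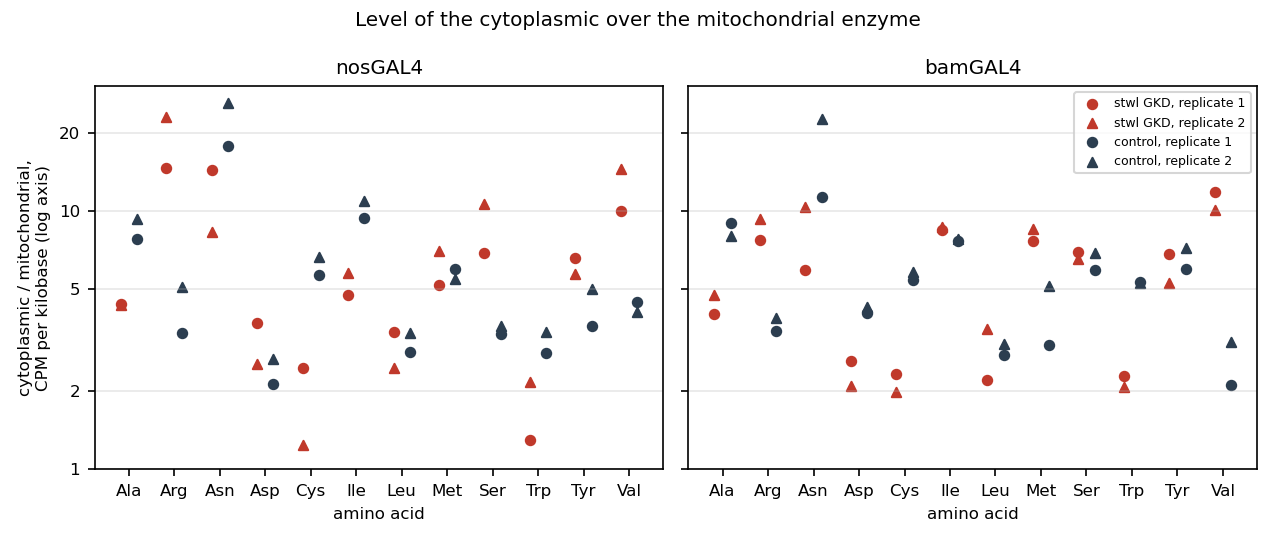
Ratio of the cytoplasmic to the mitochondrial synthetase mRNA (CPM per kilobase of exon, log axis) for 12 amino acids, 1 point per library, with nosGAL4 left and bamGAL4 right; red is stwl GKD, dark blue control, circles replicate 1 and triangles replicate 2. GKD points lie above the controls for valine and arginine, below them for alanine, asparagine, cysteine and tryptophan, and all points lie above 1.

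No member differed between the drivers by the test of the difference itself, the nosGAL4 effect minus the bamGAL4 effect, in which 2.68% of all genes were called, 1.52% as higher and 1.16% as lower with nosGAL4. At an unadjusted p below 0.05 there were 4 members, and DESeq2 called 1, TyrRS. TyrRS had the smallest adjusted p, with a difference of 1.09 on the log2 scale (SE 0.31, adjusted p = 0.0774), and without replicate 2 of the nosGAL4 knockdown the adjusted p was 0.0286. The others were PheRS-m, at 1.32 (SE 0.59), IleRS-m, at 0.84 (SE 0.37), and AspRS-m, at -0.71 (SE 0.32), with adjusted p-values of 0.202, 0.199 and 0.198. PheRS-m reached 1.89 with an adjusted p of 0.00373 without replicate 2 of the nosGAL4 knockdown, which leaves the library that carried its rise as the only one. TyrRS and PheRS-m turned to -0.31 and -0.19 under ribosomal protein scaling, which moved the median difference of all genes from 0.16 under the scaling used here to -1.22. Among the 6 mitochondrial enzymes that fell with both drivers, the differences were -0.10 (SE 0.44) for ValRS-m, -0.43 (SE 0.55) for ArgRS-m, -0.47 (SE 0.45) for SerRS-m, -0.01 (SE 0.40) for ProRS-m, 0.39 (SE 0.43) for MetRS-m and -0.30 (SE 0.35) for LeuRS-m, each smaller than 2 times its SE. As a description across genes, which are not independent replicates, the log2 fold changes with the 2 drivers correlated at Pearson r = 0.87 and Spearman rho = 0.86 over the 15 mitochondrial genes and at r = 0.5 and rho = 0.44 over the 18 cytoplasmic genes. The SD of the log2 fold changes across genes was 1.08 with nosGAL4 and 0.79 with bamGAL4 in the mitochondrial class, and 0.48 and 0.52 in the cytoplasmic class.

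Features that the symbol rule did not use were then set beside the changes. Synthetases belong to structural classes I and II, which differ in the fold of the catalytic site, and GluProRS joins one of each. Over all genes, 25.7% were lower with nosGAL4 and 33.1% with bamGAL4. Of 18 class I genes, 11 were lower and 1 higher with nosGAL4 (median log2 fold change -0.92), and 13 lower and 0 higher with bamGAL4 (median -1). Of 14 class II genes, 8 were lower and 1 higher with nosGAL4 (median -0.67), and 8 lower and 0 higher with bamGAL4 (median -0.93). The 8 enzymes of the multisynthetase complex (ArgRS, AspRS, GlnRS, GluProRS, IleRS, LeuRS, LysRS and MetRS) included 5 lower with either driver, at medians of -0.83 with nosGAL4 and -0.76 with bamGAL4. The 10 cytoplasmic enzymes outside it included 8 lower with either driver, at medians of -0.82 and -1.13. The 4 cytoplasmic genes called with neither driver thus comprised 3 of the complex, ArgRS, AspRS and GluProRS, and GlyRS. The 5 cytoplasmic genes with no -m counterpart had 4 lower with either driver, the exception being GlyRS, at medians of -0.81 and -0.95. These groupings were drawn up after the values had been seen, and no test was made of them.

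The genes were spread over the chromosome arms, with 5 cytoplasmic and 1 mitochondrial on 2L, 4 and 4 on 2R, 3 and 7 on 3L, 3 and 3 on 3R, and 3 and 0 on X. TyrRS (3L, 16417349 to 16419302) and GluRS-m (3L, 16415292 to 16417177) are neighbours on the minus strand, 171 bases apart in dm6. With nosGAL4 neither was called, at log2 fold changes of 0.08 for TyrRS, which turned to -0.33 with library totals, and -0.75 for GluRS-m. Other genes cover part of the exon bases of some members: 16.6% in GluProRS, 13.95% in SerRS-m, 11.83% in ArgRS-m, where the neighbour is mRpS9 on the other strand, 8.91% in HisRS and 5.59% in GluRS-m. Reads of such overlaps may be shared between genes.

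Other genes of cytoplasmic tRNA charging were lower as well. Over all genes, 25.7% were lower and 33.5% higher with nosGAL4, and 33.1% lower and 35% higher with bamGAL4. The cytoplasmic phenylalanine enzyme's subunits alpha-PheRS and beta-PheRS both fell with both drivers, though neither bamGAL4 call held under ribosomal protein scaling and the nosGAL4 call of beta-PheRS was lost without replicate 2 of the nosGAL4 knockdown, either nosGAL4 control or either bamGAL4 knockdown library. The alpha-PheRS mRNA had 27.3 and 27.2 CPM in nosGAL4 GKD, against 76.3 and 67.6 CPM in controls, and 44.3 and 41.2 CPM in bamGAL4 GKD, against 87.2 and 133 CPM in controls (log2 fold changes -1.40 and -1.37, SE 0.25 for each). This is the opposite direction to the nosGAL4 value of PheRS-m, 1.14, which was 0.16 without replicate 1 of the nosGAL4 knockdown. With bamGAL4 PheRS-m was at -0.18. Of the complex's scaffold genes, 2 of 3 fell with nosGAL4 and 3 of 3 with bamGAL4, at medians of -1.05 and -1.67. Without replicate 1 of the nosGAL4 controls the nosGAL4 median was -1.04, and the AIMP2 call was lost. The AIMP3 call with bamGAL4 was lost without replicate 2 of its knockdown or of its controls and under ribosomal protein scaling. AIMP1 had 14.5 and 14.6 CPM in nosGAL4 GKD, against 44 and 43.6 CPM in controls, and 15.4 and 14.1 CPM in bamGAL4 GKD, against 57.2 and 55.6 CPM in controls. Its log2 fold changes were -1.59 (SE 0.23, adjusted p = 0.000208) and -1.93 (SE 0.23, adjusted p = 4.12e-05), with groups far apart. AIMP3 missed the threshold with nosGAL4, at -0.65 with an adjusted p of 0.0679. The cytoplasmic elongation factors, which carry the charged tRNA to the ribosome and move it along, did not share this direction. Of 6, 4 were higher and 1 lower with nosGAL4 (median 0.73), and 1 higher and 2 lower with bamGAL4 (median -0.04, turning to 0.19 with RLE size factors and 0.78 with ribosomal protein scaling). The bamGAL4 falls, 2 of 6, are near the share of all genes. The nosGAL4 rises of eEF1gamma and eEF2 were lost without replicate 1 of the nosGAL4 knockdown, without either nosGAL4 control, and when scaled on library totals. eEF1alpha2 had the largest rises, with log2 fold changes of 5.04 (SE 0.49) and 5.93 (SE 0.60), from controls near 0. It had 26.6 and 45.1 CPM in nosGAL4 GKD, against 0.671 and 1.47 CPM in controls. With bamGAL4 it had 12.3 and 13 CPM in GKD, against 0.131 and 0.238 CPM in controls, at or below the level of 3 counts. In nosGAL4 GKD eEF1alpha1 had 24219 and 19873 CPM. A mammalian form of the same name is known from muscle and nerve. The muscle markers rose too, and a link with them was not tested. eEF1delta, a subunit of the exchange factor, was lower with both drivers, at -0.79 with nosGAL4 and -1.26 with bamGAL4, the bamGAL4 call being lost under ribosomal protein scaling and the nosGAL4 call without replicate 2 of the nosGAL4 knockdown, either nosGAL4 control or either bamGAL4 knockdown library.

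Most genes of mitochondrial translation that were tested were lower too. Among all genes, 25.7% were lower and 33.5% higher with nosGAL4, and 33.1% lower and 35% higher with bamGAL4. Of 9 mitochondrial translation factors tested, 6 were lower and 0 higher with nosGAL4 (median -0.96), and 8 lower and 0 higher with bamGAL4 (median -1.55); no factor had a positive log2 fold change with either driver. Ribosomal protein scaling left 1 fall with bamGAL4, mRF1, at a median of -0.71, where 13.7% of all genes were lower. Without replicate 1 or replicate 2 of the nosGAL4 controls the nosGAL4 median was -1.19 or -0.77. Without replicate 1 of the bamGAL4 knockdown the bamGAL4 median was -1.45. Each of these 3 omissions left fewer falls called, in the list and over all genes. mRF1, a mitochondrial release factor, had 5 and 5.97 CPM in nosGAL4 GKD, against 26.2 and 28.1 CPM in controls, and 5.85 and 4.67 CPM in bamGAL4 GKD, against 24.8 and 23.4 CPM in controls. Its log2 fold changes of -2.30 and -2.19 (SE 0.30 for each) were of the size of those of ValRS-m. mIF2, an initiation factor, had log2 fold changes of -1.57 with nosGAL4 and -1.55 with bamGAL4, and mEFTu1, which brings charged tRNA to the mitochondrial ribosome, had -0.49 (adjusted p = 0.191) and -1.61 (adjusted p = 0.00118). Of 7 genes of mitochondrial transcription and tRNA processing, 4 were lower and 0 higher with either driver, at medians of -0.71 with nosGAL4 and -0.94 with bamGAL4, where ribosomal protein scaling left 2, TFAM and mldr. TFAM, which packages mitochondrial DNA and starts its transcription, had 39.1 and 34.6 CPM in nosGAL4 GKD, against 80.4 and 99.5 CPM in controls, and 22.9 and 22.6 CPM in bamGAL4 GKD, against 111 and 113 CPM in controls (-1.29, SE 0.22, and -2.30, SE 0.23). rswl and mldr, components of the mitochondrial RNase P that trims tRNA 5' ends, fell with both drivers, with log2 fold changes of -1.03 and -1.27 for rswl and -1.84 and -2.62 for mldr. scu, of the same list, was not called with nosGAL4 (0.17, adjusted p = 0.583), where its libraries overlapped. With bamGAL4 scu was lower (-0.94, adjusted p = 0.00709). The bamGAL4 calls of rswl and scu were lost under ribosomal protein scaling, at -0.45 and -0.13.

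The last list held genes of the integrated stress and amino acid response, in which uncharged tRNA activates the kinase Gcn2 and the factor crc, the counterpart of mammalian ATF4, is made; in mammals ATF4 is known to activate many cytoplasmic synthetase genes. Of 12 genes, 6 were higher and 2 lower with nosGAL4 (median 0.83), and 6 higher and 3 lower with bamGAL4 (median 0.3). Over all genes, 33.5% were higher and 25.7% lower with nosGAL4 (median 0.11), and 35% higher and 33.1% lower with bamGAL4 (median -0.06). Under ribosomal protein scaling the higher and lower counts were 4 and 3 with nosGAL4 and 6 and 1 with bamGAL4. Of all 8957 genes, 2167 were then higher and 3294 lower with nosGAL4, and 4054 higher and 1224 lower with bamGAL4. Under the length correction the list's counts were 4 and 4 with nosGAL4 and 4 and 5 with bamGAL4. Of 8919 genes, 2265 were then higher and 3676 lower with nosGAL4, and 2373 higher and 4018 lower with bamGAL4. crc had 941 and 1060 CPM in nosGAL4 GKD, against 366 and 383 CPM in controls, and 929 and 908 CPM in bamGAL4 GKD, against 487 and 366 CPM in controls. It rose by log2 fold changes of 1.42 (SE 0.23, adjusted p = 0.000408) and 1.11 (SE 0.22, adjusted p = 0.00148). Of the 18 cytoplasmic synthetase genes, 13 fell with each driver. Only mRNA was measured, and a link between crc and these genes was not tested. Xrp1, a transcription factor of cell stress, rose by 5.00 and 4.48, Thor, the translation inhibitor 4E-BP, by 4.36 and 3.74, and Sesn, a brake on TORC1, by 2.07 and 1.90. AsnS, which makes asparagine from aspartate, fell, with 76.2 and 34.4 CPM in nosGAL4 GKD, against 160 and 177 CPM in controls, and 30.2 and 38.8 CPM in bamGAL4 GKD, against 144 and 160 CPM in controls (-1.61, SE 0.34, and -2.14, SE 0.34).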

How the data were processed

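Directional RNA sequencing libraries of total ovary RNA were made by the authors, per the labels' protocols. The deposited values are estimated counts per gene, not scaled between libraries. FastQC 0.11.8, Trim Galore 0.6.6, STAR 2.7.5b, Salmon 1.2.1 and the build dm6 are named per the submitters' processing notes; the sources used here give neither their roles nor the annotation and strand setting. Positions and exon lengths come from the BDGP6.54 annotation, whose coordinates are those of dm6 and which matched 33 of 33 members and 14048 of 14094 genes.

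Counts were rounded and filtered with edgeR's filterByExpr (minimum count 10, minimum total 15; 8957 genes kept). One robust quasi-likelihood model with 4 groups was fitted to all 8 libraries with TMM scaling and 4 residual degrees of freedom, in R 4.3.3 with edgeR 4.0.16 and limma 3.58.1. Contrasts were GKD against control for each driver, and the difference of these effects, nosGAL4 minus bamGAL4. Benjamini-Hochberg adjustment ran over all genes tested, with a threshold of 0.05. CPM values are TMM-scaled and log2 fold changes are GKD over control, with the SE obtained from the test statistic. The model was tested on simulated data in which few genes changed, all in the nosGAL4 knockdown. In the real data most genes were called with either driver, so that simulation does not bear on the choice of scaling. Intervals are not given for counts, and the floor of 3 counts covers counting error only.

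Genes were picked for per-library values by rule: per class and driver the 5 smallest adjusted p-values, the pairs with the largest gaps, and up to 3 called genes per pathway list. Other members and genes were added after their values had been seen. The members and lists were chosen with earlier results of these data known. Of the listed pathway symbols, SLIMP, mEFG2, gatA, gatB, gatC, PolrMT and LRPPRC2 were not matched and are not analysed here. Alternatives were RLE size factors, library totals, scaling on 87 ribosomal protein genes, DESeq2 1.42.0, other filters, only the driver's own 4 libraries, a replicate block, a transcript length correction and leaving out each library.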

Additional observations from a re-analysis of the deposited data

How the results depend on the processing

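Under the 17 alternatives, 6 of the 13 cytoplasmic calls with nosGAL4 (AlaRS, GlnRS, HisRS, LeuRS, MetRS and TrpRS) and the 6 mitochondrial falls held throughout; with bamGAL4, 0 of 13 cytoplasmic calls did (9 when ribosomal protein scaling is set aside) and 3 of 8 mitochondrial ones, MetRS-m, ProRS-m and ValRS-m (5 when it is set aside). Ribosomal protein scaling gave with bamGAL4 0 cytoplasmic and 3 mitochondrial falls and 1 rise in each class. Of all 8957 genes, 1224 were then lower and 4054 higher. For the difference between drivers it gave 7 cytoplasmic and 5 mitochondrial members on the lower side, where 35.9% of all genes were. It turned 10 log2 fold changes with bamGAL4, among them the called IleRS to 0.27 and IleRS-m to 0.12, and the uncalled ArgRS to 0.49 and ValRS to 0.59. With nosGAL4 it turned ArgRS to -0.55, AspRS to -0.59, TyrRS to -0.50, AsnRS-m to -0.36, IleRS-m to -0.48 and TrpRS-m to -0.67. None of these nosGAL4 values was called under either scaling. Over all genes it set the share of higher calls at 39.7% with nosGAL4 and 76.8% with bamGAL4, against 56.6% and 51.5% under TMM; library totals gave 43% and 45.6%, and the length correction 38.1% and 37.1%. The 2 mitochondrial rises with nosGAL4 became 0 under library totals, ribosomal protein scaling, the driver's own 4 libraries and the length correction, and 1 with no filter. With bamGAL4, 1 cytoplasmic rise, GluProRS, appeared under RLE size factors, DESeq2 and the stricter filter, and 1 mitochondrial rise, AspRS-m, under RLE size factors and DESeq2; DESeq2 also called TyrRS as 1 member that differed between drivers. Library totals moved the median of all genes by -0.39 with nosGAL4 and -0.21 with bamGAL4. They turned the same nosGAL4 values: ArgRS to -0.35, AspRS to -0.41, TyrRS to -0.33, AsnRS-m to -0.25, IleRS-m to -0.30 and TrpRS-m to -0.41. They also turned CysRS-m with bamGAL4 to -0.20. The length correction moved the median of all genes by -0.52 with nosGAL4 and -0.5 with bamGAL4. It turned these nosGAL4 values to -0.32, -0.39, -0.28, -0.15, -0.42 and -0.45, in that order. With bamGAL4 it turned CysRS-m to -0.22, GluProRS to -1.06 and AspRS-m to -0.78. The driver's own libraries gave ArgRS -0.01, no filter gave CysRS-m -0.01, and RLE size factors and DESeq2 each gave ValRS 0.02 with bamGAL4.

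Leaving out 1 library left 1 in its group. It changed the number of calls among the members and over all genes, so class medians are given here. The cytoplasmic median ran from -0.9 to -0.68 with nosGAL4 and from -1.23 to -0.69 with bamGAL4. The mitochondrial median ran from -0.59 to -0.34 with nosGAL4 and from -0.9 to -0.79 with bamGAL4. The median of the cytoplasmic minus that of the mitochondrial class was -0.36 with nosGAL4 (-0.51 to -0.19) and -0.12 with bamGAL4 (-0.42 to 0.20; 0.20 without replicate 2 of the bamGAL4 controls, and -0.27 with the length correction). Log2 fold changes over these omissions ran from -0.31 to 0.33 for ArgRS with nosGAL4, negative without the first knockdown library (-0.31) or the first control library (-0.06). With bamGAL4 they ran from -0.58 to 0.23 for ValRS, positive without the second control library, and from -0.16 to 0.21 for CysRS-m, negative without the second knockdown library (-0.06) or the first control library (-0.16). The causes were not tested.

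Replicate numbers were not shown to pair libraries: deviations from group means of same-numbered libraries correlated at -0.0375 with nosGAL4 and -0.00325 with bamGAL4. With the replicate block there were 12 cytoplasmic falls with each driver, 6 mitochondrial falls with nosGAL4 and 7 with bamGAL4, and 1 mitochondrial rise with nosGAL4. Of all 8957 genes, 2142 were then lower and 2761 higher with nosGAL4, and 2752 lower and 2991 higher with bamGAL4. Precision was limited by 2 libraries a group and, for GluRS-m and AsnRS-m, by low counts.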
